A study of Rattus norvegicus with 5 samples.

Results

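The solute carrier genes encode membrane proteins that move small molecules and ions across the plasma membrane or the membranes of organelles. They were taken as all probe sets with a single symbol of the form Slc followed by a digit in the platform annotation. The Slc27a fatty acid transport proteins and Slc25a13, Slc25a20, Slc2a2, Slc37a4, Slc10a1, Slc40a1 and Slc4a2 were left out, 9 probe sets in all. Of the 8797 probe sets measured, 177 met this rule. They stood for 176 genes of the 7589 with a symbol of their own, since only Slc7a12 had 2 probe sets, of which the brighter was used. The rule used symbols only and no measured value, though the set was chosen with earlier results of these data known.

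Livers of 4-month-old male rats on standard chow were compared between PD, the polydactylous rat strain, and a congenic strain that is deficient in the fatty acid translocase Cd36 and, as its name says, carries a part of chromosome 4 from SHR, the spontaneously hypertensive rat, in the PD genome. The sample labels name the congenic strain PD.SHR4, while the series design text has PD.SHR4a. Labelled cDNA of 8 rats per strain was pooled and hybridised to Affymetrix Rat Exon 1.0 ST arrays, 3 for PD and 2 for PD.SHR4. Whether arrays of 1 strain held different rats is not stated, so each p-value reflects the spread between arrays, which may be purely technical. Levels are log2 expression values from RMA, and a difference is PD.SHR4 minus PD on the log2 scale, with the standard error (SE) of the moderated limma fit.

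Solute carriers work as facilitators, as exchangers, or as cotransporters that draw on the gradients of sodium, protons or other ions. In the liver they take up amino acids for urea and glucose production, organic anions and cations for metabolism and excretion, and trace metals for storage and export. The carriers of the Slc25 family shuttle metabolites, nucleotides and phosphate across the inner mitochondrial membrane. Many members are best known from other tissues such as kidney, intestine and brain.

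Before the comparison, the arrays were checked. The shared probe set of Cd36 and its neighbour Cd36l1 measured 7.35, 7.83 and 7.93 on the PD arrays and 4.18 and 4.85 on the PD.SHR4 arrays (-3.19 ± 0.26 (SE); adjusted p = 0.0149, limma). Hepatocyte markers were high in both strains, with albumin (Alb) at 13.20 in PD and 13.25 in PD.SHR4, and the summed level of the 6 of 7 hepatocyte markers measured was 14.93 to 14.98 in PD and 15.02 to 15.03 in PD.SHR4. Of the 6, 4 differed without overlap but did not pass, 66.7% against 31.9% of all probe sets. Tat differed by -0.61 and Cyp2e1 by 0.43 (limma, adjusted p = 0.27 and 0.169), Cps1 by 0.11 and Hnf4a by 0.12. Of 4 stellate cell markers 3 were measured, Lrat at -0.75 and Pdgfrb at -0.48 without overlap and Des at 0.17 with overlap, and their summed level was 8.204 to 9.004 in PD and 7.865 to 8.080 in PD.SHR4. Their part in the strain differences was not tested. Of 4 kidney markers 3 were measured, Umod, Cdh16 and Aqp2, at 2.88, 3.61 and 4.54 in PD, where the lower quartile of an array lay between 2.84 and 2.93. Over the 176 solute carrier genes, the correlation between 2 arrays was r = 0.990 to 0.997 within a strain and r = 0.982 to 0.989 between strains. Detection was not called in the files, so dim genes are described as dim only, and levels of different probe sets are not set against each other as amounts of RNA.

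As a whole the solute carrier genes differed about as often as the rest of the array. Of the 176 genes, 1 passed the test (limma, adjusted p under 0.05), a fall in the phosphate transporter gene Slc34a2, and 175 did not. Over the whole array 0.932% of probe sets passed, 0.659% as falls and 0.273% as rises. Differences of at least 1.5-fold were seen in 13 solute carrier genes, 7.39% of them, against 7.68% of all probe sets. Of these 13, 11 were lower in PD.SHR4 and 2 higher, while over all probe sets 4.80% were lower and 2.89% higher. PD and PD.SHR4 arrays did not overlap in 65 genes, 36.9%, against 31.9% of all probe sets, and these split into 37 higher and 28 lower in PD.SHR4, where 14.8% of all probe sets were higher and 17.1% lower. At an unadjusted p under 0.05 there were 29 genes, or 16.5% against 13.8% of all probe sets. Of the 29, 14 were higher and 15 lower, where 5.84% of all probe sets were higher and 7.92% lower. The median difference was 0.013, with 93 values above 0 and 83 below, beside a median of 1.97e-04 over all probe sets. The whole-array shares of 13.8% at an unadjusted p under 0.05 and 31.9% without overlap apply beside each count by class or list below.

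**Figure D1:**
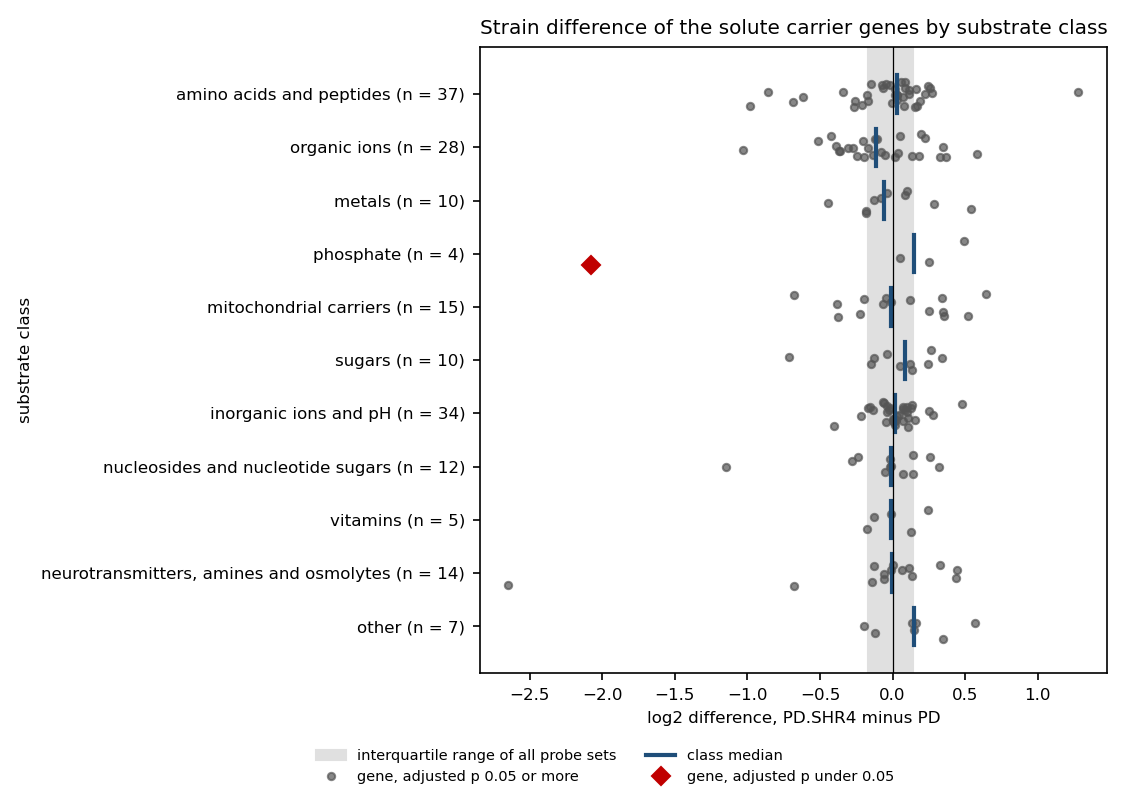
Log2 difference between PD.SHR4 and PD for each of the 176 solute carrier genes, 1 point per gene, in rows by substrate class with the vertical bar at the class median and the interquartile range of all 8797 probe sets shaded. Slc34a2, at -2.08 in the phosphate row, was the only gene past the threshold, and the leftmost point is Slc6a6 at -2.65.

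Some transporters best known from other organs were dim. In all, 27 of the 176 genes were under the lower quartile on all 5 arrays, beside 1842 of all 8797 probe sets, so dim genes were not more frequent here. Among the 27 were the kidney chloride cotransporter gene Slc12a1, the neuronal choline transporter gene Slc5a7 and the glial glutamate transporter gene Slc1a3, examples chosen after their values were seen. The differences of the 27 ran from -0.25 to 0.26, and none of the 27 had an unadjusted p under 0.05, where 4.51% of the 1842 equally dim probe sets of the array did. With so few genes this count says little. The arrays did not overlap in 8 of the 27, 29.6%, against 18.8% of the equally dim probe sets. The other 149 genes held all 13 differences of at least 1.5-fold, 8.72% of them, against 9.30% of the probe sets that were not as dim. At the upper end, 33 of the 176 genes were over the upper quartile on all 5 arrays, beside 1972 of all 8797 probe sets. The 33 included 8 carriers of amino acids and 6 mitochondrial carriers.

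**Figure D2:**
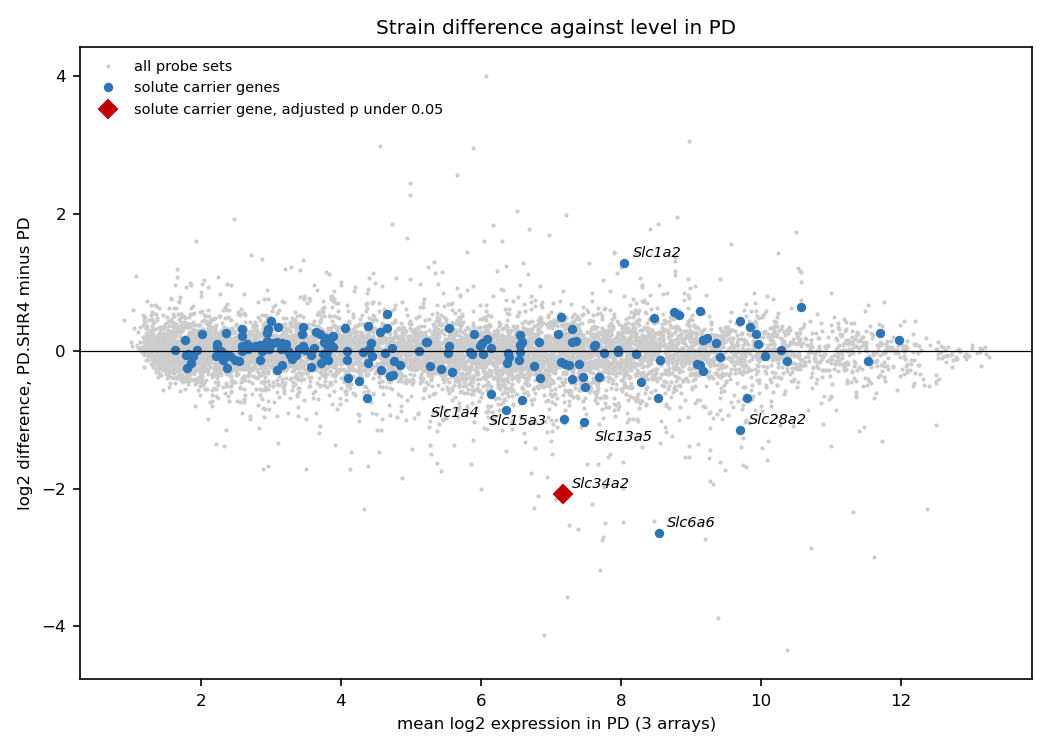
Log2 difference (PD.SHR4 minus PD) against the mean log2 level in PD over 3 arrays, with all 8797 probe sets in grey and the 176 solute carrier genes in blue. The genes with names, from Slc6a6 at -2.65 to Slc1a2 at 1.28, were of middle or high level in PD, and the dim genes at the left lay close to 0.

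The 3 solute carrier genes with the largest differences are shown with the 250 bases before their annotated starts, because their transcripts set the range of the family. The sequences are those of RefSeq on rat assembly GRCr8, written 5′ to 3′ on the gene's strand, and 149 of the 176 genes had an entry. Capitals mark matches to 4 motifs searched on both strands, which did not overlap in these windows. The GC box was searched as GGGCGG. The TATA box was searched as TATAAA. The E-box, a site for basic helix-loop-helix factors, was searched as CACGTG. The amino acid response element, a site for Atf4, was searched as TGATGCAA.
Slc34a2, GRCr8 chr14:62143073-62143322, minus strand: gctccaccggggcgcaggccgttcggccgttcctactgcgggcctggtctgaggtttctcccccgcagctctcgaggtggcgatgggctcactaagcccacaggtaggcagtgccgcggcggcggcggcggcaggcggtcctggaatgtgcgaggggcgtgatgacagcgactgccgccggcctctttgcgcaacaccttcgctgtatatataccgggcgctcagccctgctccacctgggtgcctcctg
Slc6a6, GRCr8 chr4:125752252-125752501, plus strand: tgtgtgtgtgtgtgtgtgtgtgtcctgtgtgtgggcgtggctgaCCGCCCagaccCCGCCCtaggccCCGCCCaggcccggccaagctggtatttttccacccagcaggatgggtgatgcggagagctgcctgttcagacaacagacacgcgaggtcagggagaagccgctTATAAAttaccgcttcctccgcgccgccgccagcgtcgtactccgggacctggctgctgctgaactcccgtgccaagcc
Slc1a2, GRCr8 chr3:109459859-109460108, plus strand: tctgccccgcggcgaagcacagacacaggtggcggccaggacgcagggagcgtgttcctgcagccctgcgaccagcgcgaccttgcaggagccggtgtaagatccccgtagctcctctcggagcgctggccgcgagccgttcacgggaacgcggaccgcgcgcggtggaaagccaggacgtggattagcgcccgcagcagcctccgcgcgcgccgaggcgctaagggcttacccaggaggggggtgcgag
The Slc6a6 window held 3 GC boxes and 1 TATA box, and the windows of Slc34a2 and Slc1a2 held none of these letters. GC boxes occurred in 30.5% of all 33469 windows of that length, in 44.4% of the windows of genes measured here, and in 77 of the 149 solute carrier windows, 51.7%. The TATA box occurred in 12.9% of all windows, 13.5% of those of measured genes and 14 of the 149, 9.40%. The E-box occurred in 5.59% of all windows, 6.77% of those of measured genes and 18 of the 149, 12.1%. For the amino acid response element these were 0.693%, 0.707% and 2 of the 149, 1.34%. The G and C content was 68.8% for Slc34a2, 64.0% for Slc6a6 and 71.2% for Slc1a2, beside a median of 51.2% over all windows. The arrays measured transcripts, and binding to these sequences was not measured.

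Phosphate carriers came first by the test. Slc34a2, the sodium-phosphate cotransporter also called NaPi-IIb, best known from lung and intestine, measured 6.95, 7.25 and 7.33 on the PD arrays and 5.44 and 4.76 on the PD.SHR4 arrays. Every PD array lay above both PD.SHR4 arrays. Slc34a2 was 4.23-fold lower in PD.SHR4, a difference of -2.08 ± 0.24 (SE) (limma, adjusted p = 0.0364). The other 3 phosphate carriers did not pass. Slc20a1, the widely expressed transporter PiT-1, measured 7.12, 7.19 and 7.14 on the PD arrays and 7.74 and 7.56 on the PD.SHR4 arrays, without overlap and in the other direction (0.50 ± 0.12 (SE); adjusted p = 0.15, limma). The kidney forms of the Slc34 family were below the array medians of 5.21 to 5.38, Slc34a1 at 3.61 and Slc34a3 at 3.44 in PD, with differences of 0.051 and 0.25, and Slc34a1 overlapped between the strains. The difference of Slc34a1 was -0.061 without PD.SHR4 array 1.

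The Slc34a2 call depended on having all the arrays. Its adjusted p (limma) was 0.0665 to 0.279 when any 1 of the 5 arrays was left out, at differences of -2.42 to -1.74, and 0.220 without variance shrinkage. In bulk liver, fewer cells of a type and less RNA per cell cannot be told apart. Among markers of other epithelia, the bile duct keratin gene Krt19 had a difference of 0.50, the epithelial adhesion gene Epcam -0.23 and the intestinal gene Fabp2 0.65. Only 2 of 6 bile duct markers and 1 of 4 intestinal markers had a probe set of their own. Their summed level was 6.83 to 7.39 in PD and 6.95 to 7.01 in PD.SHR4 for the bile duct, and 4.97 to 5.36 in PD and 5.79 to 5.84 in PD.SHR4 for Fabp2. Their part in the Slc34a2 result was not tested. On chromosome 14 the 5 measured genes on each side had differences of -0.10 to 0.41.

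Of 13 other genes of phosphate handling, 9 were measured and none passed (limma), with 1 at an unadjusted p under 0.05. Their median difference was 0.16. Ankh, which exports pyrophosphate and nucleotides, measured 8.03, 8.37 and 8.02 on the PD arrays and 8.69 and 8.71 on the PD.SHR4 arrays and had the smallest p of the list (0.56 ± 0.15 (SE); adjusted p = 0.179, limma). Pdzk1, a scaffold protein that binds transporters of the apical membrane, had a difference of 0.44 ± 0.18 (SE), without overlap.

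**Figure D3:**
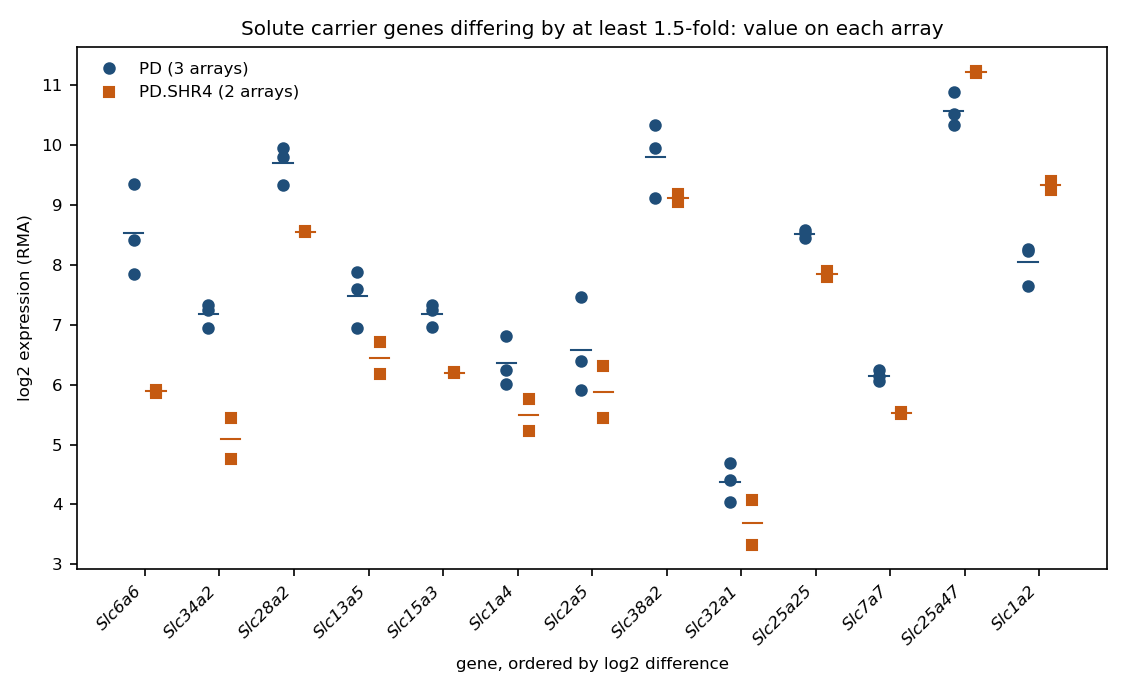
Log2 expression on each of the 3 PD arrays (circles) and 2 PD.SHR4 arrays (squares) for the 13 solute carrier genes that differed by at least 1.5-fold, with short lines at the strain means. Arrays of the strains overlapped for Slc2a5, Slc38a2 and Slc32a1 and were separate for the other 10 genes.

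The largest difference of any solute carrier gene belonged to Slc6a6, the sodium-dependent taurine transporter. Taurine serves as an osmolyte and is conjugated to bile acids in the liver. Slc6a6 measured 7.84, 9.36 and 8.41 on the PD arrays and 5.86 and 5.92 on the PD.SHR4 arrays. The PD arrays were widely spread, the PD.SHR4 arrays were almost equal, and the strains did not overlap. Slc6a6 was 6.27-fold lower in PD.SHR4 (-2.65 ± 0.42 (SE)) but missed the threshold (limma, adjusted p = 0.0619). It passed without PD array 2, the highest of the 3, with an adjusted p (limma) of 0.0462 at -2.24, and had one of 0.0494 after centring each array on its median. It did not pass without PD array 1 or without PD array 3.

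Slc6a6 was one of 14 genes for neurotransmitters, amines and osmolytes, of which none passed (limma) and 2 had an unadjusted p under 0.05. The other was Slc6a13, a carrier of GABA and taurine in liver and kidney, which measured 9.59, 9.69 and 9.83 on the PD arrays and 10.12 and 10.17 on the PD.SHR4 arrays. It lay higher in PD.SHR4 without overlap (0.44 ± 0.13 (SE); adjusted p = 0.204, limma). Slc32a1, which loads GABA and glycine into synaptic vesicles, measured 4.03, 4.40 and 4.69 on the PD arrays and 4.07 and 3.32 on the PD.SHR4 arrays. PD array 1 lay below PD.SHR4 array 1, and the difference was -0.68 ± 0.29 (SE). It was -1.06 without PD.SHR4 array 1 and -0.31 without PD.SHR4 array 2. The vesicular acetylcholine transporter gene Slc18a3 had a difference of 0.45 from a PD level of 3.01. The class had a median of -0.0052 and 7 values on either side of 0. Its 2 genes with an unadjusted p under 0.05 were 14.3% of the class, against 13.8% of all probe sets.

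The 37 carriers of amino acids and peptides had 21 values above 0 and 16 below, a median of 0.027 and a range of -0.98 to 1.28. None passed the test (limma), 4 had an unadjusted p under 0.05, and the arrays did not overlap in 6 higher and 7 lower genes. Beside 13.8% and 31.9% of all probe sets, these were 10.8% and 35.1% of the class. The highest difference was that of Slc1a2, the high-affinity glutamate transporter GLT-1, known in liver from the hepatocytes around the central vein. Slc1a2 measured 8.23, 7.65 and 8.26 on the PD arrays and 9.26 and 9.41 on the PD.SHR4 arrays. It was 2.43-fold higher in PD.SHR4 without overlap (1.28 ± 0.22 (SE); adjusted p = 0.0708, limma), the largest positive difference among the solute carriers.

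Lower values were seen in Slc15a3, Slc7a7 and Slc1a4. Slc15a3, a lysosomal transporter of peptides and histidine, measured 7.34, 6.97 and 7.25 on the PD arrays and 6.20 and 6.20 on the PD.SHR4 arrays, a 1.98-fold difference (-0.98 ± 0.15 (SE); adjusted p = 0.0569, limma). It passed without PD array 2 (adjusted p = 0.0465, limma) but not without PD array 1 or PD array 3 (adjusted p = 0.104 and 0.182, limma). Slc7a7, the light chain of a transporter of cationic and neutral amino acids, measured 6.06, 6.14 and 6.25 on the PD arrays and 5.55 and 5.52 on the PD.SHR4 arrays (-0.62 ± 0.12 (SE); adjusted p = 0.0855, limma). Both genes are also known from macrophages, and of the Kupffer cell markers 2 of 5 were measured, with differences of -0.71 for Adgre1 and -0.079 for Clec4f. The summed level of these markers was 10.69 to 10.92 in PD and 10.56 to 10.66 in PD.SHR4, and their part in the differences was not tested. Slc1a4, the neutral amino acid exchanger ASCT1, measured 6.25, 6.01 and 6.80 on the PD arrays and 5.77 and 5.22 on the PD.SHR4 arrays (-0.86 ± 0.28 (SE)), with PD.SHR4 array 2 the lowest.

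Slc3a2, Slc7a5 and Slc38a4, related amino acid carriers, were chosen after their values were seen. The gene of the heavy chain that pairs with Slc7a7 and Slc7a5, Slc3a2, measured 9.33, 8.84 and 9.51 on the PD arrays and 9.43 and 9.41 on the PD.SHR4 arrays, with overlap. Its difference of 0.19 was -0.0039 without PD array 2 and -0.035 with array weights. Slc7a5, a carrier of large neutral amino acids, had a difference of -0.26 ± 0.18 (SE). Slc38a2, a glutamine and alanine transporter that is induced when amino acids are scarce, measured 10.34, 9.12 and 9.95 on the PD arrays and 9.05 and 9.19 on the PD.SHR4 arrays. Its PD arrays were widely spread and PD array 2 lay within the range of the PD.SHR4 arrays (-0.68 ± 0.35 (SE); -1.02 without PD array 2). The system N glutamine transporter Slc38a3, the highest amino acid carrier in mean level, had a difference of 0.16 from 11.97 in PD, and Slc38a4, a hepatocyte carrier of neutral amino acids, 0.27 from 11.70. Both had separate arrays.

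Genes of the amino acid response were measured beside these carriers. Of 14 listed, 10 were measured, none passed (limma) and 2 had an unadjusted p under 0.05, 20.0% against 13.8% of all probe sets. Their median difference was -0.43, and the values ran from -1.19 to 0.034. Atf4, the transcription factor of the response, measured 10.43, 10.35 and 10.51 on the PD arrays and 10.12 and 9.89 on the PD.SHR4 arrays (-0.43 ± 0.13 (SE); adjusted p = 0.231, limma), without overlap. Ddit4, an inhibitor of mTORC1, had a difference of -0.62 ± 0.20 (SE). Asns and Trib3, a synthetase for asparagine and a pseudokinase chosen after their values were seen, had wide PD arrays: Asns measured 5.41, 4.57 and 5.98 and Trib3 7.16, 5.56 and 7.11. PD array 2 was the lowest PD array for both of these and for Slc38a2, Slc7a5, Slc1a4 and Slc3a2, a grouping made after the values were seen. Other genes went otherwise. PD array 2 was the highest for the amino acid carriers Slc1a5 (4.25, 4.57 and 4.38) and Slc7a1 (3.39, 3.66 and 3.33). For Cebpb of the response list PD array 1 was the lowest (7.94, 8.06 and 8.20).

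Carriers of organic ions held more values below 0 than above it. Of 28 genes, 17 had values below 0 and 11 above, with a median of -0.12. None passed (limma), 6 had an unadjusted p under 0.05, 4 lower and 2 higher, and the arrays did not overlap in 7 lower and 5 higher genes. Slc13a5, which brings citrate into hepatocytes, measured 7.88, 6.94 and 7.60 on the PD arrays and 6.71 and 6.17 on the PD.SHR4 arrays. It was 2.04-fold lower in PD.SHR4 (-1.03 ± 0.31 (SE); adjusted p = 0.229, limma). PD array 2, the lowest of its strain, still lay above both PD.SHR4 arrays. Within the Slc13 family of dicarboxylate and sulphate carriers all 5 values were below 0, from -1.03 to -0.066. The arrays were separate in 2 of the 5, and only Slc13a5 had an unadjusted p under 0.05. Slc13a1 was under the lower quartile on all 5 arrays. The family was not picked by a rule set beforehand.

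Of the 3 Slc44 choline carrier family genes, 2 had values below 0 and 1 above, and none passed (limma, 2 with an unadjusted p under 0.05). Slc44a1, which moves choline into cells and mitochondria, measured 7.62, 7.31 and 7.54 on the PD arrays and 7.02 and 6.93 on the PD.SHR4 arrays (-0.51 ± 0.14 (SE); adjusted p = 0.182, limma). Slc44a4 had a difference of -0.37 ± 0.11 (SE), also without overlap, and Slc44a3, named to complete the family, one of 0.20 ± 0.19 (SE) with overlap. Slc16a7, the monocarboxylate transporter MCT2 for pyruvate, lactate and ketone bodies, measured 9.24, 9.10 and 9.04 on the PD arrays and 9.72 and 9.70 on the PD.SHR4 arrays (0.58 ± 0.12 (SE); adjusted p = 0.106, limma). Slc16a1, the related MCT1, overlapped between strains and had a difference of -0.20 ± 0.20 (SE); it was chosen after its value was seen. Slc22a18, the highest of the class in mean level, had a difference of -0.14 with overlap. The drug and organic anion carrier Slc22a8, also chosen after its value was seen, measured 9.77, 10.12 and 9.64 on the PD arrays and 10.16 and 10.22 on the PD.SHR4 arrays, a difference of 0.35 ± 0.17 (SE).

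Another family of organic anion carriers, the Slco genes, was measured for 12 of 16 listed members. None passed (limma) and 1 had an unadjusted p under 0.05, at a median of 0.072. That gene was Slco1a4, a sinusoidal uptake carrier for bile acids, steroid conjugates and drugs. It measured 8.60, 9.55 and 8.17 on the PD arrays and 10.19 and 9.98 on the PD.SHR4 arrays and was 2.49-fold higher in PD.SHR4, without overlap (1.31 ± 0.40 (SE); adjusted p = 0.225, limma). Slco3a1 had a difference of 0.32 ± 0.19 (SE) and overlapped, at 0.072 without PD.SHR4 array 1 and 0.57 without PD.SHR4 array 2.

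The 10 metal carriers stayed within 0.6 log2 units of 0. Their median was -0.059, none passed (limma), and 2 had an unadjusted p under 0.05, 1 in each direction. Slc30a3, a zinc transporter of vesicles, measured 4.69, 4.62 and 4.69 on the PD arrays and 5.18 and 5.24 on the PD.SHR4 arrays (0.54 ± 0.11 (SE); adjusted p = 0.102, limma). The arrays of each strain lay close together and did not overlap. Slc39a8, which imports zinc and manganese, measured 8.29, 8.33 and 8.26 on the PD arrays and 7.91 and 7.78 on the PD.SHR4 arrays, in the opposite direction (-0.45 ± 0.11 (SE); adjusted p = 0.169, limma). All 4 Slc39 importers had values below 0, from -0.45 to -0.082, but only Slc39a8 had separate arrays. No rule set beforehand picked this family. Slc30a2, a zinc exporter, had a difference of 0.28 without overlap, and the zinc importer Slc39a3 -0.19 with overlap. Slc31a1, the copper importer CTR1 and the highest in mean level, had a difference of 0.10 with overlap.

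Of 14 genes for zinc and copper handling, 8 were measured and none passed (limma), with 1 at an unadjusted p under 0.05 and a median of -0.086. Caeruloplasmin (Cp), the copper-binding ferroxidase of plasma, had a difference of -0.32 ± 0.11 (SE) and the copper chaperone Atox1 -0.21 ± 0.11 (SE), both without overlap.

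Mitochondrial carriers went both ways. Of 15 Slc25 genes none passed (limma), 7 had an unadjusted p under 0.05, 4 higher and 3 lower, and the arrays were separate in 10, 7 higher and 3 lower. These were 46.7% and 66.7% of the class, against 13.8% and 31.9% of all probe sets. The class median was -0.0084, and it ran from -0.081 without PD array 1 to 0.14 without PD array 2. Slc25a25, a calcium-regulated carrier of ATP-magnesium and phosphate, measured 8.54, 8.58 and 8.45 on the PD arrays and 7.90 and 7.79 on the PD.SHR4 arrays (-0.68 ± 0.12 (SE); adjusted p = 0.0727, limma). The 3 PD arrays lay close together and both PD.SHR4 arrays were below them. Slc25a4, an exchanger of ADP and ATP, measured 6.82, 6.98 and 6.75 on the PD arrays and 6.47 and 6.47 on the PD.SHR4 arrays (-0.38 ± 0.12 (SE)). The citrate carrier Slc25a1, which exports citrate for fatty acid synthesis and was chosen after its value was seen, had a difference of -0.38 ± 0.13 (SE).

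Higher values in PD.SHR4 were found for Slc25a47, Slc25a22 and others of the family. Slc25a47, a liver-specific carrier and the highest of the class in mean level, measured 10.89, 10.52 and 10.33 on the PD arrays and 11.21 and 11.24 on the PD.SHR4 arrays (0.65 ± 0.19 (SE); adjusted p = 0.204, limma). Slc25a22, which carries glutamate, measured 8.88, 8.65 and 8.96 on the PD arrays and 9.46 and 9.24 on the PD.SHR4 arrays (0.52 ± 0.15 (SE); adjusted p = 0.203, limma). The PD.SHR4 arrays lay above every PD array in both genes. Some further members of the family were chosen after their values were seen. The iron carrier mitoferrin-1 (Slc25a37) had a difference of 0.34, Slc25a34 0.34 and the dicarboxylate carrier Slc25a10 0.25, all without overlap.

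Of 13 related genes of mitochondrial pyruvate import, uncoupling and outer membrane channels, 8 were measured. None passed (limma), none had an unadjusted p under 0.05, and the values ran from -0.22 to 0.20. The uncoupling protein gene Ucp2 had a difference of -0.22 ± 0.11 (SE) and the outer membrane channel gene Vdac2 0.20 ± 0.13 (SE).

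Sugar carriers, 10 in number, had a median of 0.084, and none passed (limma). The fructose transporter gene Slc2a5 measured 5.91, 7.47 and 6.39 on the PD arrays and 5.44 and 6.31 on the PD.SHR4 arrays. Its arrays overlapped, PD array 2 stood well above the other PD arrays, and the difference was -0.71 ± 0.50 (SE). It was -0.27 without PD array 2, -0.28 without PD.SHR4 array 1 and -1.15 without PD.SHR4 array 2. Slc45a1, a proton-coupled sugar transporter, was the only gene of the class with an unadjusted p under 0.05 (0.34 ± 0.14 (SE)). The kidney glucose transporter gene Slc5a2 had a difference of 0.13 and the neuronal glucose transporter gene Slc2a3 0.26 from a PD level of 2.36.

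Nucleoside and nucleotide sugar carriers numbered 12, with a median of -0.014, and none passed (limma). Slc28a2, the sodium-coupled uptake carrier for purine nucleosides, measured 9.34, 9.96 and 9.81 on the PD arrays and 8.56 and 8.55 on the PD.SHR4 arrays. The PD.SHR4 arrays were nearly equal and every PD array lay above them. Slc28a2 was 2.21-fold lower in PD.SHR4 (-1.15 ± 0.20 (SE); adjusted p = 0.0784, limma). Slc35f6 had a difference of 0.32, the lysosomal nucleoside transporter Slc29a3 0.26 and Slc35b1, an ATP importer of the endoplasmic reticulum, -0.28, each without overlap. Of the 12 genes, 2 had an unadjusted p under 0.05, Slc28a2 and Slc35f6, or 16.7% against 13.8% of all probe sets.

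The 34 carriers of inorganic ions and acid-base equivalents had 22 values above 0 and 12 below, and a median of 0.020. None passed (limma), 2 had an unadjusted p under 0.05 and 7 had separate arrays. Those counts were 5.88% and 20.6% of the class, under the 13.8% and 31.9% of all probe sets. Slc26a1, the sulphate and oxalate exchanger of hepatocytes, measured 8.30, 8.53 and 8.58 on the PD arrays and 9.03 and 8.88 on the PD.SHR4 arrays (0.48 ± 0.14 (SE); adjusted p = 0.212, limma). Slc8b1, a sodium-calcium exchanger of mitochondria, measured 7.15, 7.39 and 7.36 on the PD arrays and 6.96 and 6.83 on the PD.SHR4 arrays (-0.41 ± 0.13 (SE); adjusted p = 0.257, limma). The kidney sodium chloride cotransporter gene Slc12a3 and the intestinal anion exchanger gene Slc26a3 were below the array medians, at 3.65 and 2.01 in PD, and had differences of 0.28 and 0.25. Slc26a3 was also under the lower quartile on all 5 arrays. The 5 Slc9 sodium-proton exchanger genes, a family not picked by a rule, had differences between 0.0062 and 0.075. They were dim, with 3 of the 5 under the lower quartile on all 5 arrays.

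Vitamin carriers, 5 in number, ran from -0.18 to 0.25. None passed (limma) and none had an unadjusted p under 0.05. The biotin and pantothenate carrier Slc5a6 had a difference of 0.25 without overlap, and the folate carriers Slc46a1 and Slc19a1 had differences of -0.18 and 0.13. The ascorbate carrier Slc23a1 had a difference of -0.13. Among 7 genes of other kinds none passed (limma). Slc66a2 measured 8.49, 9.08 and 8.69 on the PD arrays and 9.41 and 9.24 on the PD.SHR4 arrays (0.57 ± 0.20 (SE); adjusted p = 0.281, limma) and was the only one of the 7 with an unadjusted p under 0.05. The urea transporter gene Slc14a1 had a difference of 0.35, the acetyl-CoA transporter gene Slc33a1 0.16 and Slc66a3 -0.19.

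Because the congenic segment lies on chromosome 4, the 8 solute carrier genes placed there in the RefSeq table were set apart. None passed (limma), 2 had an unadjusted p under 0.05, and their median difference was 0.032, against 0.013 for the other 168. These 2 were Slc6a6 and Slc6a13, described above with their values of -2.65 and 0.44. The other 6, Slc26a5, Slc13a1, Slc13a4, Slc4a5, Slc6a11 and Slc2a3, overlapped between the strains at differences of -0.15 to 0.26. Along the 480 measured genes of the chromosome, the nearest to Cd36 was Slc26a5 with 10 measured genes between, while 261 lay between Cd36 and Slc6a6 and 323 between Cd36 and Slc6a13. The 5 measured genes on each side of Slc6a6 had differences of -0.20 to 0.76, the highest being Chchd4 (0.76 ± 0.19 (SE); adjusted p = 0.163, limma). Those around Slc6a13 had differences of -0.91 to 0.42. Of these Apobec1, an enzyme that edits apolipoprotein B RNA, fell (-0.91 ± 0.12 (SE); adjusted p = 0.0457, limma), and Klrg1 had a difference of -0.86 ± 0.13 (SE) (adjusted p = 0.0606, limma). Chchd4, Apobec1 and Klrg1 were chosen after their values were seen. The extent of the SHR segment is not given in the sources used here, and whether probes cover bases that differ between the strains was not tested.

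The 13 differences of at least 1.5-fold kept their direction in all 12 alternative fits, while which of them passed varied. Slc34a2, the only one past the threshold with all 5 arrays as deposited, passed in 6 of these fits. Slc6a6 passed in 7, Slc15a3, Slc1a2 and Slc28a2 in 4 each, Slc25a25 in 3, Slc13a5, Slc1a4, Slc7a7 and Slc25a47 in 1 each, and Slc2a5, Slc38a2 and Slc32a1 in none. For the 10 genes whose arrays did not overlap, leaving out an array could not turn the direction. No difference can change in the fits without variance shrinkage, with an intensity trend and robust shrinkage, or without the dimmest probe sets. The replicate block repeats the differences of the fit without PD array 3, though its variance and its calls differ. The kept direction therefore rests on fewer fits than 12.

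**Figure D4:**
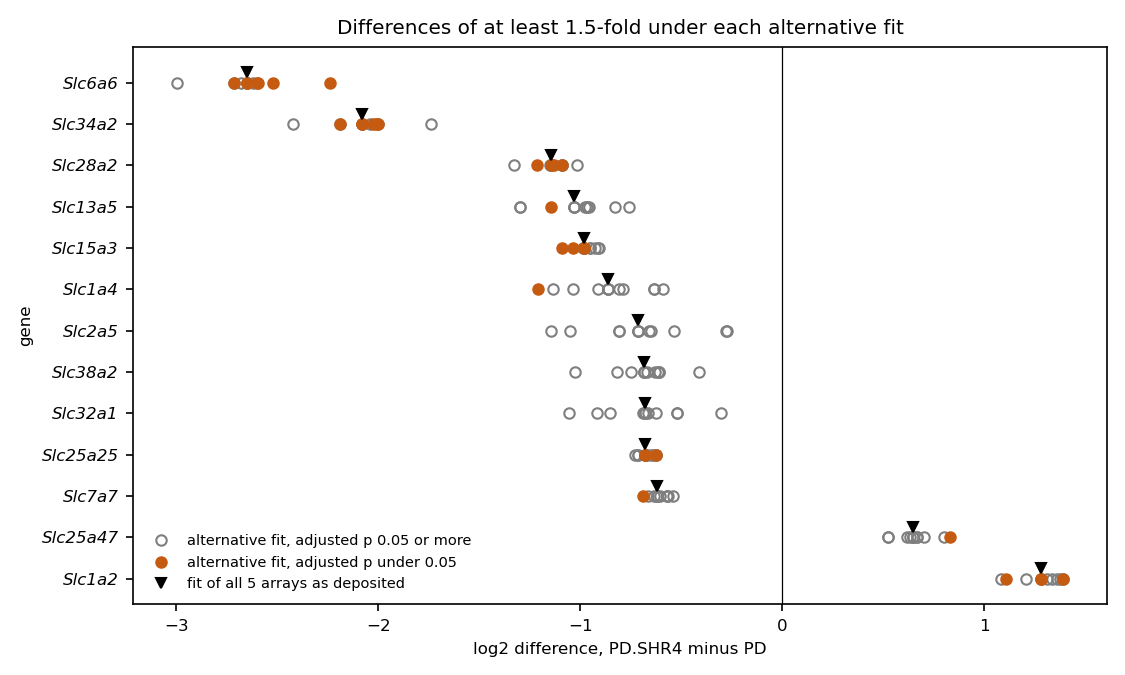
Log2 difference (PD.SHR4 minus PD) of the 13 genes under 12 alternative fits, 1 circle per fit, filled where the adjusted p was under 0.05, with triangles for the fit of all 5 arrays as deposited. Slc6a6 ranged from -2.99 to -2.24 and Slc34a2 from -2.42 to -1.74, and every circle lay on the same side of 0 as its triangle. Fits that changed only the variance model or the probe sets tested repeat the difference of the triangle.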

How the data were processed

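Liver RNA of 2 rat strains was measured on 5 arrays. The deposited table holds log2 expression values for 8797 core-gene probe sets, which the authors made with RMA in Affymetrix Expression Console, per the labels. Partek is also named in the submitters' processing notes. RMA models background, normalises arrays by quantiles and summarises probes, which is meant to make levels of a probe set comparable between arrays. The deposited arrays still differed in distribution. PD array 2 had a median of 5.38 and quartiles of 2.84 and 7.65. The other arrays had medians of 5.21 to 5.26, lower quartiles of 2.88 to 2.93 and upper quartiles of 7.38 to 7.50. Not given in the sources used here are versions, annotation release and build.

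Gene names came from GEO's platform annotation, where 7603 had 1 symbol, 409 several and 785 none. All 176 gene IDs matched RefSeq (GRCr8). A probe set shared by Slc22a5 and Slc22a21 was not used. Close paralogues may bind each other's probes, which was not tested. For each probe set a two-sided moderated test was run over all 5 arrays with no covariate (limma 3.58.1, R 4.3.3), adjusted by Benjamini-Hochberg over all probe sets, threshold 0.05. The fit was tested on simulated data. Named genes were those past the threshold, the 4 with the smallest p and the highest in mean level of each substrate class, and in each related list those past the threshold and the 2 with the smallest p; others are marked, or are among the 13 past 1.5-fold. Substrate classes follow the Slc family number unless a gene was placed by hand. Families such as Slc5, Slc6, Slc13, Slc16 and Slc17 are therefore split between classes, and class counts and medians depend on these placements. Members and lists were chosen with earlier results of these data known. Summed marker levels are log2 of summed linear values. The replicate numbers of the labels were not used to pair the arrays in this fit. Deviations of arrays with the same number correlated at 0.050 and 0.082. The 2 PD.SHR4 arrays deviate from their mean by opposite amounts, so these values cannot decide whether the numbers pair.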

Additional observations from a re-analysis of the deposited data

How the results depend on the processing

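With 3 and 2 arrays of pooled cDNA, the number of arrays limits the precision, and whether the arrays carry any spread between rats is not stated. Leaving out each array in turn gave 0 to 55 changed probe sets in place of 82, and 0 to 2 solute carrier genes in place of 1. The 2 were Slc15a3 and Slc6a6, without PD array 2. Without PD array 1 there were 28 changed probe sets, without PD array 3 18, and without either PD.SHR4 array 0, where 737 and 710 had an unadjusted p under 0.05 and the lone array was assumed to vary like PD. The median of the solute carrier genes was then -0.0033 to 0.025, against 0.013.

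The replicate block gave the differences of the fit without PD array 3 but estimated the variance otherwise. Counts of changed probe sets and of changed solute carrier genes were 163 and 4 with that block. They were 2 and 0 without variance shrinkage (1102 and 35 at an unadjusted p under 0.05), 151 and 6 with an intensity trend and robust shrinkage, and 149 and 5 of 146 genes without the dimmest 25% of probe sets, where fewer tests were adjusted for. A further quantile normalisation gave 3 solute carrier genes and a median of 0.032, and median centring 2 and 0.066; the medians of all probe sets were then 0.020 and 0.054. Array weights gave 819 and 21. The causes were not tested. A limit of 1.5-fold, or the mean of the Slc7a12 probe sets, left the count at 1.

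Of 72 genes followed through 861 fits, 68 kept their direction. Those of the fits that changed only the variance model or the probe sets tested could not turn a direction. Leaving out 1 array at a time, Slc34a1 ran from -0.061 to 0.16, Slc23a1 from -0.27 to 0.050 and Slc3a2 from -0.0039 to 0.33. Of the 72, 25 moved by over 1.5 times or turned when some array was left out, none of them past the threshold with all arrays. The medians of 6 of the 11 substrate classes changed sign when some array was left out, and those of organic ions, metals, phosphate, sugars and other carriers did not. With array weights Slc19a1 was -0.010 and Slc3a2 -0.035.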

Other observations

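The PD arrays of the solute carrier genes were farther apart than the PD.SHR4 arrays, with a median SD of 0.14 (n = 3) against 0.079 (n = 2), as over all probe sets, where the medians were 0.18 and 0.093. PD array 2 was the farthest from the middle PD array in 84 of 176 solute carrier genes, 47.7%, PD array 1 in 64 and PD array 3 in 28. Over all probe sets the shares were 45.2%, 33.1% and 21.7%.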
